A study of Mus musculus with 5 samples.

Results

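Nuclear receptors are transcription factors that, for most of the family, are switched by small fat-soluble ligands such as thyroid hormone, retinoic acid, steroids, oxysterols and fatty acids. A typical member joins a zinc-finger DNA-binding domain to a ligand-binding domain. Many bind DNA as a heterodimer with a retinoid X receptor (RXR), and in fat cells the pair of PPARG and RXRA drives differentiation. The account below covers 42 mouse genes of this family, listed by name. Of these, 38 were measured by a probe set whose only gene symbol was theirs, out of 19505 genes named in this way and 22206 probe sets on the array. Ppard, Nr1h2, Nr2e3 and Esrra (4 genes) matched no named probe set and are not analysed here. Rora had 3 probe sets and Rorb 2. For those 2 genes the brightest set, by its mean of 5 arrays, stands for the gene, and all Rora sets are described.

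RNA came from 3T3-L1 cells, a mouse preadipocyte line that becomes fat cells in culture. All 5 samples had the same differentiation: basal medium for 4 days, then 4 days with 0.5 mM IBMX (which raises cAMP), insulin at 5 µg/mL and the glucocorticoid dexamethasone at 1 µM, then 2 days with only insulin and 1 day in basal medium. The 3 exposed samples were next kept for 72 h in RPMI-1640 with 10% serum that was shared, through a membrane with 0.4 µm pores, with MM.1S cells, a human myeloma line. The 2 control samples had that medium alone for the same time, without myeloma cells. Labels call these replicates and do not name separate cultures, so the p-values cover only the spread among these 5 arrays, and that spread may be technical. With pooled cells of a culture, fewer cells of a type and less RNA per cell cannot be told apart.

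Each sample was read by 1 Clariom S array, and values are log2 signals after RMA, an array normalization. The table has no detection calls. As a reference for dim signal, the 95th percentile of the mean signal of 1091 olfactory receptor probe sets was 4.03. That fat cells make little use of most of these genes was assumed and not tested. The median of all probe sets was 4.81. Signals of different probe sets also depend on how well each probe binds, so the order given below is an order of array signal, not of RNA amount. Adipocyte markers (10 of 12 listed genes measured) were all above the reference, and their mean level lay between 10.16 and 10.29 on exposed and at 10.24 and 10.22 on control arrays. Preadipocyte and fibroblast markers were above it for 7 of 10 measured genes, B and plasma cell markers for 3 of 9, macrophage markers for 4 of 11 and endothelial markers for 1 of 10. Hepatocyte and skeletal muscle markers were above it for 4 of 10 genes each. Markers above the reference therefore do not by themselves show that a cell type was present. The 2 genes of widest difference in each marker list were Retn (0.46) and Plin1 (-0.25) for adipocytes, Cd24a (-0.43) and Dlk1 (-0.28) for preadipocytes, Cd79b (-0.37) and Mzb1 (-0.37) for B and plasma cells, and C1qa (-0.51) and C1qc (0.45) for macrophages. They were Tie1 (-0.54) and Esam (0.37) for endothelium, Alb (-0.67) and Apoh (0.20) for hepatocytes and Mylpf (0.40) and Myh1 (0.38) for muscle, and none passed the test. The part that other cell types play in the results was not tested.

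Exposed array 1 had the narrowest distribution of signals, with an interquartile range of 3.59 against 3.74 to 3.83 on the other 4 arrays. Exposed arrays 1 and 3 held 30.2% and 29.2% of the 5059 cases in which 1 array lay more than 0.4 beyond all others, over all probe sets. Among the receptors there were 10 such cases in 9 genes, and 6 of them fell on exposed array 1. On that array Nr1h3 and Nr2c1 were low, while Thrb, Nr4a3, Nr0b2 and Hnf4a were high. For several receptors the difference without such an array is given below.

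Promoter sequences of 5 receptor genes are shown first, 4 because they hold the response elements that these genes are textbook examples for and 1 for contrast. They were chosen after the values were seen. Rarb is the classical retinoic acid target within the family. Its promoter holds a direct repeat of GTTCA and AGTTCA with 5 bases between them, the type of element that RAR and RXR bind together. The NR4A genes are immediate-early genes of cAMP signalling, and each of their promoters holds 4 copies of TGACG, the half-site of the cAMP response element, counted on both strands. The last sequence, of Nr1i2, is a promoter poor in CpG, of the receptor with the lowest signal. Windows run from 250 bases before to 50 after the start of transcription, from RefSeq on GRCm38.p6. Rarb lies at chr14:16575427-16575726 on the minus strand and Nr4a1 at chr15:101266596-101266895 on the plus strand. Nr4a2 lies at chr2:57123954-57124253 on the minus strand, Nr4a3 at chr4:48045055-48045354 on the plus strand and Nr1i2 at chr16:38294775-38295074 on the minus strand. Capitals mark the repeat in Rarb, the half-sites in the NR4A genes and each CpG in Nr1i2.
Rarb: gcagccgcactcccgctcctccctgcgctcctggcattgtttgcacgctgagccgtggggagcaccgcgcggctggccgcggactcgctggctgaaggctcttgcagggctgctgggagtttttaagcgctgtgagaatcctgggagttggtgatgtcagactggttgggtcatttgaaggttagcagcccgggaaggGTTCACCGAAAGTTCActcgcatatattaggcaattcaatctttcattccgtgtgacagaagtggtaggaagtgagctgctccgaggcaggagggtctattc
Nr4a1: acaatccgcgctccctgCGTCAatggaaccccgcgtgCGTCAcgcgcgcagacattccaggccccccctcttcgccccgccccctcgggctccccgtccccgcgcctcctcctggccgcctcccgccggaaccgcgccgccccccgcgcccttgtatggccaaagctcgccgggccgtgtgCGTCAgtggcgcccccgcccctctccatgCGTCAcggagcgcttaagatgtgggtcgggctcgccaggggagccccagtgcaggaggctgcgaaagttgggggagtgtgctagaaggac
Nr4a2: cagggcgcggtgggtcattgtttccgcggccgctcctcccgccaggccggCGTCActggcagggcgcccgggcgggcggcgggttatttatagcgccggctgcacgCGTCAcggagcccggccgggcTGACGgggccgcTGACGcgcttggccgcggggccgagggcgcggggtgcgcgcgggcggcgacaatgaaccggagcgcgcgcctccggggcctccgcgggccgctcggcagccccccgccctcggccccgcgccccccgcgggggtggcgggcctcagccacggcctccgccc
Nr4a3: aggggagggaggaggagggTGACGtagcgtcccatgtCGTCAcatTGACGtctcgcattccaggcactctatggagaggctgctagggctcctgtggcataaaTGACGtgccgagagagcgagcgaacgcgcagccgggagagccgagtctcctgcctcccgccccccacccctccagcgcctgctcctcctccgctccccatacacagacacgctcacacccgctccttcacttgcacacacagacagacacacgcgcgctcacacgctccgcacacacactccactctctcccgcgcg
Nr1i2: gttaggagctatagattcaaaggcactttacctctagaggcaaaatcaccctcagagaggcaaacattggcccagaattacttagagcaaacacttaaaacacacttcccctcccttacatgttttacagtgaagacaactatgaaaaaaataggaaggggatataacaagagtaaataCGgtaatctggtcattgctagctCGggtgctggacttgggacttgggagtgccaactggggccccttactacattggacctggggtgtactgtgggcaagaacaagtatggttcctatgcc

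The repeat in Rarb begins 52 bases before the start site. Of all 32851 RefSeq promoter windows of this length, 11 (0.0335%) hold such a repeat, searched on both strands and with overlapping matches counted, and Rarb is the only gene among the 35 measured receptors with a window. TGACG occurs at least 4 times in 76 windows (0.231%). Nr4a1, Nr4a2 and Nr4a3 are the 3 receptor genes among them. Rarb and the NR4A genes were shown because they hold these elements. The limit of 4 equals the count in each NR4A window shown, so the small shares are a description and no support. At least 1 copy is present in 20.8% of all windows and 27.8% of the receptors' 54 windows. AGGTCA, the half-site that many nuclear receptors bind, searched in the same way, occurs in 16.3% of all windows and 16.7% of the receptors'. These matches describe letters and say nothing of binding in these cells.

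Of the 38 receptors, 20 had a mean signal above the dim-signal reference, as did 59.8% of all probe sets, and 18 lay at or below it. The highest were the retinoic acid receptor gene Rara at 9.04 ± 0.14 (SD, n = 5 arrays), the thyroid hormone receptor gene Thra at 8.56 ± 0.13 and Rxra at 7.79 ± 0.095. Rara was at the 93.8th percentile of all probe sets by mean signal and Thra at the 91.2nd. Rarg (7.73), Vdr (7.65) and Rora (7.37) followed, then Nr2f1 (7.06), Nr6a1 (6.97), Nr2f2 (6.86), Nr2c2 (6.78), Rxrb (6.73) and Nr4a1 (6.27). Neighbours in this order from Rxra to Vdr, and from Nr2f1 to Rxrb, were closer than their SDs over arrays. Nr1h3 (5.92), Nr2c1 (5.77), Nr2f6 (5.70), Nr3c2 (5.10), Rarb (4.92), Nr0b2 (4.60), Nr1i3 (4.51) and Thrb (4.28) complete the upper group. The last 4 of these were below the single brightest olfactory receptor set (5.06). Just under the reference were Nr5a1 (3.77), Nr4a2 (3.72) and Esr1 (3.68), and the lowest were Esrrb (2.19), Hnf4g (2.16) and Nr1i2 (2.13).

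**Figure D1:**
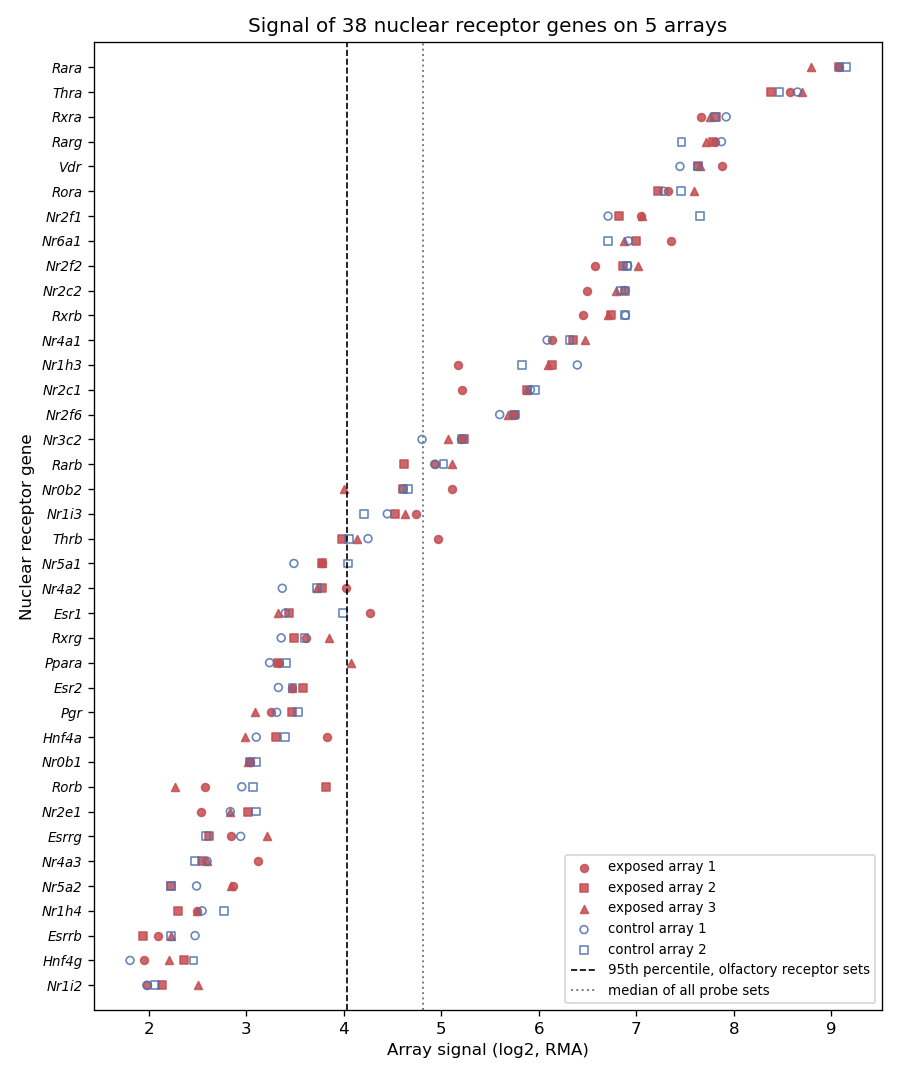
Log2 array signal (horizontal axis) of 38 nuclear receptor genes (vertical axis, ordered by mean), with 1 point per array: filled red for the 3 exposed and open blue for the 2 control arrays. The dashed line is the 95th percentile of olfactory receptor probe sets (4.03) and the dotted line the median of all probe sets (4.81); the genes run from Rara (9.04) down to Nr1i2 (2.13), and Thrb (4.28) is the last above the dashed line.

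By class, all 5 measured thyroid and retinoid receptors were above the reference, as were 2 of 3 RXRs and 5 of 8 orphans of the HNF4, TR2/TR4, TLX/PNR and COUP-TF group. In the steroid and oestrogen-related class Nr3c2 was, and the other 5 were not. The receptors above the reference had a median of 20 CpG in their CpG-richest promoter window (19 genes with a window), and those at or below it 13.5 (16 genes). Over all named genes with a window the medians were 21 above (9659 genes) and 4 at or below (6032 genes). At least 15 CpG, a limit chosen after the values were seen, were present in 68.4% and 37.5% of these receptors, against 71.2% and 22.1% of all genes. Low CpG was not limited to dim receptors: Nr1i2, the receptor with the lowest signal, and Nr2f2, among the brightest, both had 2. Nr0b2 and Nr1i3, above the reference but below the median of all probe sets, had 3.

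No receptor passed the test between exposed and control arrays. limma called 0 of 38 receptors higher and 0 lower at an adjusted p under 0.05, where it called 0% of all 22206 probe sets. At an unadjusted p under 0.05 there were 0 of 38, against 3.49% of all, and the dimmest Rora set, which does not stand for its gene, was the 1 of 41 receptor probe sets under it. Exposed means were higher for 20 receptors and lower for 18, and 49.9% of all probe sets were higher. The median difference, exposed minus control, was 0.0081 on the log2 scale for the receptors and -0.0004 over all probe sets, and the receptors' median was -0.0098 with each array centred on its median. Single differences ran from -0.31 (Nr1h3) to 0.30 (Nr1i3). For 36 of 38 receptors the 95% interval excluded a 2-fold difference in either direction, which held for 92.9% of all probe sets. The exceptions were Nr1h3 and Rorb. Because RMA compresses differences between dim signals, intervals of the 18 dim receptors limit the array values more than the RNA.

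**Figure D2:**
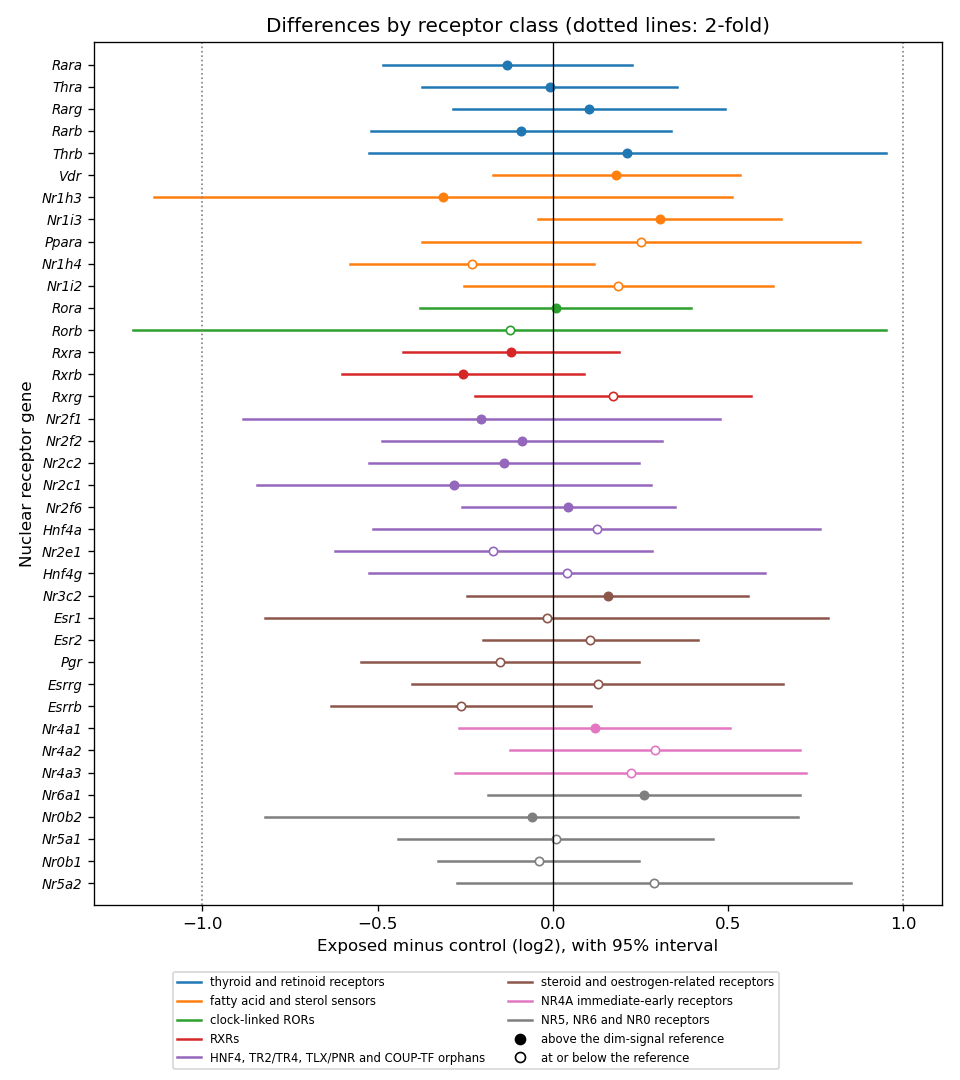
Exposed minus control on the log2 scale (horizontal axis) for each receptor gene (vertical axis, grouped and coloured by class), with the 95% interval from limma as a line; filled points lie above the dim-signal reference and open points at or below it. Every interval spans 0, and those of Nr1h3 (-1.14 to 0.51) and Rorb (-1.20 to 0.95) pass a dotted 2-fold line.

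Thyroid hormone receptors keep target genes silent without hormone and activate them with it. Thra, which encodes the form that prevails in many non-hepatic tissues, read 8.58, 8.38 and 8.70 on exposed arrays 1 to 3 and 8.65 and 8.47 on control arrays 1 and 2. The groups overlapped, and the difference was -0.0096 (95% interval -0.37 to 0.36). Thrb, the form typical of liver, differed by 0.21 (-0.52 to 0.95), with 4.97 on exposed array 1 and between 3.98 and 4.25 on the other 4. Without exposed array 1 its difference was -0.090. Of 13 measured genes of thyroid hormone handling and response 7 were higher and 6 lower (median 0.044), and 0 passed. In that list 7 genes were above the reference. The widest differences were those of the transporter gene Slco1c1 (0.37) and the deiodinase gene Dio1 (-0.28), both below it (2.31 and 3.62).

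Retinoic acid receptors respond to the vitamin A derivative retinoic acid, which opposes adipogenesis when given early. Rara, the receptor gene with the highest signal, read 9.08, 9.08 and 8.80 on exposed arrays and 9.08 and 9.15 on control arrays. Only exposed array 3 was below the others, and the difference was -0.13 (-0.49 to 0.22). Rarg read 7.81, 7.79 and 7.72 on exposed and 7.87 and 7.46 on control arrays, so the control arrays enclosed all exposed ones (difference 0.10, -0.28 to 0.49). Rarb, whose promoter is shown above, read 4.94, 4.62 and 5.11 on exposed and 4.93 and 5.02 on control arrays. Its groups overlapped as well, with a difference of -0.090 (-0.52 to 0.34). Retinoid handling and RAR target genes were 11 higher and 12 lower of 23 measured, with a median of -0.025 and 0 passing. Lrat, which stores retinol as ester, differed by 0.515 (-0.05 to 1.08) and Aldh1a2, which makes retinoic acid, by 0.48 (0.0047 to 0.96). Both were below the reference (3.85 and 2.57).

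RXRs are the shared partners of thyroid, retinoid, vitamin D, PPAR and LXR receptors. Rxra read 7.66, 7.82 and 7.76 on exposed and 7.92 and 7.81 on control arrays. Exposed array 2 lay between both controls, and the difference was -0.12 (-0.43 to 0.19). Rxrb read 6.45, 6.74 and 6.71 on exposed arrays and 6.89 on both control arrays. Every exposed array was below both controls, with means of 6.63 ± 0.16 (SD, n = 3) and 6.89 ± 0.0012 (SD, n = 2), and the difference was -0.26 (-0.60 to 0.09; limma adjusted p 0.93). It was -0.17 without exposed array 1. Rxrg, the form of muscle and brain, was dim at 3.58 and differed by 0.17 (-0.22 to 0.56).

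Complete separation of the 2 groups occurred for 4 of the 38 receptors: upwards for Nr1i3 and downwards for Rxrb, Nr2c1 and Nr1h4. Over all probe sets 8.5% were separated upwards and 8.84% downwards, and the receptors' shares of 1 and 3 in 38 were not above that background. Nr1i3 encodes the constitutive androstane receptor, a xenobiotic sensor of liver. It read 4.74, 4.53 and 4.63 on exposed and 4.45 and 4.21 on control arrays and had the smallest unadjusted limma p of the 38 (0.0753), with a difference of 0.30 (-0.04 to 0.65). Nr1h4, the bile acid receptor FXR, read 2.49, 2.29 and 2.49 on exposed and 2.55 and 2.77 on control arrays. That is a difference of -0.23 (-0.58 to 0.12) at a level where olfactory receptor genes also lie. Nr1i2, the pregnane X receptor, differed by 0.19. Bile acid and xenobiotic target genes were above the reference for 2 of 14 measured genes and split 7 to 7 (median -0.0080). Abcb11, below the reference at 3.71, differed by 0.55, and Abcb1b, above it at 4.96, by 0.42.

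Vdr, the vitamin D receptor, is expressed in 3T3-L1 cells during differentiation and restrains it when bound by its hormone. It read 7.88, 7.63 and 7.65 on exposed and 7.45 and 7.63 on control arrays. The exposed arrays reached higher, but control array 2 equalled exposed array 2 at the printed precision, and the difference was 0.18 (-0.17 to 0.53), or 0.10 without exposed array 1 and 0.089 without control array 1. Of 10 measured vitamin D handling and target genes 7 were higher and 3 lower, with a median of 0.12. Only 1, S100g (5.59), was above the reference. Cyp24a1, the standard vitamin D target, was at 4.08 on exposed and 3.66 on control arrays (difference 0.42, -0.15 to 0.99). Its exposed array 1 was the highest at 4.48, and exposed array 2 and control array 2 were equal at 3.82. Cyp27b1, which makes the active hormone, differed by 0.33. Means of both genes over 5 arrays (3.91 and 4.025) were below the reference (4.029).

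Nr1h3, the liver X receptor alpha, senses oxysterols and raises cholesterol export. It read 5.17, 6.13 and 6.09 on exposed and 6.39 and 5.83 on control arrays. Exposed array 1 was 0.66 below the next lowest array, and the difference of -0.31 (-1.14 to 0.51) became 0.00045 without that array. It was -0.60 without control array 2. Its targets were 4 higher and 10 lower of 14 measured (median -0.040), 0 passing. The cholesterol exporter genes Abca1 and Abcg1 had the widest differences, at -0.46 (-1.03 to 0.12) and -0.31 (-0.83 to 0.20). Ppara, which drives fatty acid oxidation in liver, was dim, with 3.33, 3.32 and 4.07 on exposed and 3.24 and 3.41 on control arrays. Only exposed array 3 stood above the rest, and the difference of 0.25 (-0.37 to 0.88) was 0.0013 without it. Pparg, the adipocyte member of that subfamily, had an exposed mean of 10.99 ± 0.05 (SD, n = 3) and a control mean of 10.97 ± 0.02 (SD, n = 2). PPAR target genes were 7 higher and 15 lower of 22. Their median of -0.041 turned to 0.037 without exposed array 3, with 0 passing, and the widest differences were those of Aqp7 (-0.40) and Slc25a20 (0.28).

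The 3 Rora probe sets gave different signals and different contrasts. Rora activates clock genes through the element that REV-ERB proteins use to repress them. The brightest set, which its name marks as unmapped, read 7.32, 7.22 and 7.59 on exposed and 7.28 and 7.46 on control arrays. The mapped set read 6.17, 6.32 and 6.18 on exposed and 6.24 and 6.33 on control arrays. In both the groups overlapped, with differences of 0.0083 (-0.38 to 0.39) and -0.064 (-0.37 to 0.24). The dimmest set, also unmapped, read 2.53, 2.46 and 2.58 on exposed and 3.12 and 3.10 on control arrays. Its groups were separated by a difference of -0.59 (-0.88 to -0.29), at a limma adjusted p of 0.93 and an unadjusted p of 0.0026. Of all 41 receptor probe sets it had the smallest unadjusted p. Its mean of 2.76 lay at the 62.1st percentile of olfactory receptor sets. Each set lists 1 transcript that RefSeq gives to Rora. Of the 64 probe sets marked unmapped, 2 had an unadjusted p under 0.05.

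**Figure D3:**
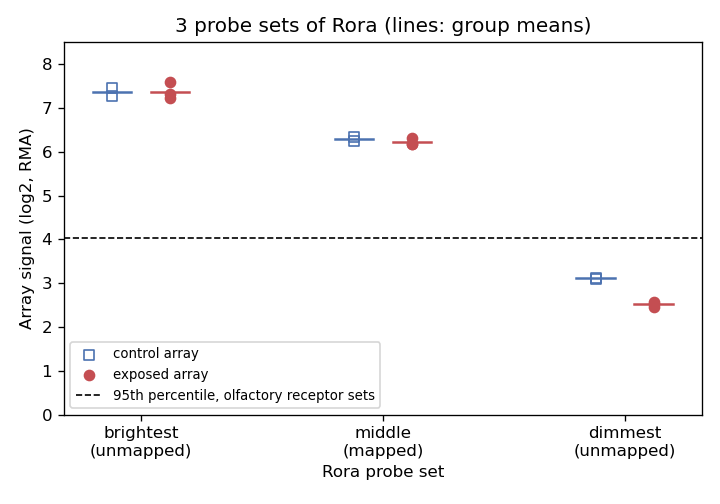
Log2 array signal (vertical axis) of the 3 Rora probe sets (horizontal axis), with red circles for exposed arrays, open blue squares for control arrays, short lines for group means and a dashed line for the 95th percentile of olfactory receptor sets. Groups overlap for the brightest (7.37) and the mapped set (6.25) and are apart by -0.59 for the dimmest (2.76), which lies under the dashed line.

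Rorb, known from brain and retina, was dim and scattered, at 2.58, 3.81 and 2.27 on exposed and 2.95 and 3.07 on control arrays. The difference of -0.12 (-1.20 to 0.95) was -0.59 without exposed array 2 and turned to 0.19 without exposed array 3. Its other probe set, at 2.41, differed the other way, by 0.20 (-0.18 to 0.59). Among clock receptors outside the list, Nr1d1, which encodes REV-ERB alpha, had exposed arrays at 8.57 ± 0.19 (SD, n = 3) and control arrays at 8.10 ± 0.23 (SD, n = 2), and Nr1d2, which encodes REV-ERB beta, differed by 0.052. The Nr1d1 difference of 0.47 (0.05 to 0.90) had a limma adjusted p of 0.93. Target genes of ROR and REV-ERB were 11 higher and 3 lower of 14 (median 0.086), 0 passing. Arntl, the BMAL1 gene that both families act on, differed by -0.50 (-1.07 to 0.07) and Elovl3, below the reference at 2.82, by 0.26.

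COUP-TF receptors are orphans that mark mesenchymal cells, and COUP-TFII, the product of Nr2f2, has been reported to restrain adipogenesis. Nr2f2 read 6.58, 6.87 and 7.02 on exposed and 6.91 and 6.90 on control arrays, with the controls inside the exposed range (difference -0.088, -0.49 to 0.31). Nr2f1 read 7.05, 6.82 and 7.05 on exposed and 6.71 and 7.65 on control arrays. The controls were the lowest and the highest of the 5, and the difference was -0.20 (-0.88 to 0.48). It was -0.68 without control array 1 and 0.27 without control array 2. Nr2f6 kept within 5.60 to 5.76 on all arrays (difference 0.044). The testicular receptors TR4 and TR2 are widespread orphans. Nr2c2 (TR4) read 6.49, 6.88 and 6.79 on exposed and 6.89 and 6.84 on control arrays, a difference of -0.14 (-0.52 to 0.24), or -0.024 without exposed array 1. Nr2c1 (TR2) read 5.21, 5.88 and 5.88 on exposed and 5.91 and 5.96 on control arrays. It was lower on every exposed array, by -0.28 in mean (-0.84 to 0.28), but by -0.060 without exposed array 1. Hnf4a, Hnf4g and Nr2e1, factors of liver, gut and neural stem cells, were all dim, between 2.16 and 3.32, with differences of 0.12, 0.040 and -0.17. Without exposed array 1 that of Hnf4a was -0.10 and that of Nr2e1 -0.038.

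Steroid receptors bind DNA mostly as homodimers once they hold their hormone, and oestrogen-related receptors act without a known hormone. Nr3c2, the mineralocorticoid receptor, which responds to corticosteroids and promotes fat cell differentiation, read 5.20, 5.23 and 5.06 on exposed and 4.80 and 5.21 on control arrays. Control array 1 was the lowest and the groups overlapped (difference 0.16, -0.24 to 0.56). The glucocorticoid receptor gene Nr3c1 had an exposed mean of 6.40 ± 0.04 (SD, n = 3) and a control mean of 6.58 ± 0.19 (SD, n = 2). Corticosteroid target genes were 7 higher and 6 lower of 13 (median 0.11), with Pdk4 at 0.26 and Klf15 at 0.20. Esr1, the oestrogen receptor alpha, was at 4.27 on exposed array 1 and 3.99 on control array 2, and between 3.33 and 3.44 on the others (difference -0.018, -0.82 to 0.79). Esr2 differed by 0.11, Pgr by -0.15 and Esrrg by 0.13, all at means from 2.84 to 3.46. Esrrb, which acts in embryonic stem cells, read 2.10, 1.94 and 2.22 on exposed and 2.47 and 2.22 on control arrays. Exposed array 3 and control array 2 were equal at 2.22, and the difference was -0.26 (-0.63 to 0.11). Steroid enzyme and oestrogen response genes were 9 higher and 8 lower of 17 (median 0.015), with Hsd17b11 at -0.29 and Srd5a3 at 0.27. Target genes of oestrogen-related receptors were 10 higher and 8 lower of 18 (median 0.024). Cox8b differed by 0.48 and Perm1, below the reference at 3.86, by 0.34. In all 3 lists 0 genes passed.

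The NR4A receptors act without a ligand and are set by how much is made after a stimulus. Nr4a1, which encodes NUR77, read 6.13, 6.35 and 6.47 on exposed and 6.09 and 6.31 on control arrays. The groups overlapped (difference 0.12, -0.27 to 0.51). Nr4a2 read 4.02, 3.77 and 3.73 on exposed and 3.37 and 3.73 on control arrays, with control array 1 the lowest (difference 0.29, -0.12 to 0.71). Nr4a3 was at 3.12 on exposed array 1 and between 2.47 and 2.60 on the other 4. Its difference of 0.22 (-0.28 to 0.72) was 0.037 without exposed array 1. Without control array 1 the differences of Nr4a1 and Nr4a2 were 0.0055 and 0.11. All 3 means were higher on exposed arrays, with overlapping groups and differences that 1 array each reduced in this way. Other immediate-early genes split 9 higher and 11 lower of 20 (median -0.0053), 0 passing, with Pde4b at 0.58 (-0.09 to 1.26) and Fosb at 0.53 (-0.09 to 1.15).

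Nr6a1, the germ cell nuclear factor, represses pluripotency genes in the embryo. It read 7.35, 7.00 and 6.87 on exposed and 6.92 and 6.71 on control arrays. Exposed array 1 was the highest and exposed array 3 lay between the controls, and the difference was 0.26 (-0.19 to 0.70), or 0.12 without exposed array 1. Nr5a1 and Nr5a2, regulators of steroid-producing and liver cells, were dim, with differences of 0.0079 and 0.29. Nr5a1 had the identical value of 3.77 on all 3 exposed arrays. Nr0b1 and Nr0b2 lack the DNA-binding domain and act by binding other receptors. Nr0b1 kept within 3.01 and 3.10 (difference -0.041). Nr0b2 was at 5.11 on exposed array 1 and 4.00 on exposed array 3, its highest and lowest values, around 4.61 and 4.66 on control arrays (difference -0.061, -0.82 to 0.70). Its difference was -0.33 without exposed array 1 and 0.23 without exposed array 3.

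Receptors work through coactivators, which acetylate chromatin and recruit polymerase, and corepressors, which remove acetyl groups. Coactivator genes were 7 higher and 13 lower of 20 measured (median -0.086), and corepressor genes 3 higher and 11 lower of 14 (median -0.063), where all probe sets had a median of -0.0004 and the probe sets above the dim-signal reference, as all these genes were, -0.015. None passed. Without exposed array 1 the medians were -0.053 for coactivators and -0.037 for corepressors, and corepressors were at -0.023 without control array 1. Ncoa2, the coactivator SRC-2 that promotes fat storage, was at 8.17 on exposed and 8.53 on control arrays (difference -0.36, -0.68 to -0.04). Kat2a differed by -0.32. Nrip1, which encodes the fat cell corepressor RIP140, was at 5.29 and 5.83 (difference -0.54, -1.10 to 0.02), and Nsd1 differed by -0.34. Mean levels of the coactivators were 6.83, 7.05 and 6.92 on exposed and 7.05 and 7.02 on control arrays, and those of the corepressors 7.46, 7.71 and 7.63 against 7.75 and 7.69. Exposed array 1 was the lowest for both lists, and exposed array 2 lay between the controls.

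Receptors varied between arrays much as other probe sets of their level did. The SD over 5 arrays had a median of 0.17 for the 20 receptors above the reference and 0.23 for the 18 at or below it, and over all probe sets 0.18 and 0.22. It was widest for Rorb (0.58), Nr1h3 (0.47), Esr1 (0.42), Thrb (0.40) and Nr0b2 (0.40), and narrowest for Nr0b1 (0.034) and Nr2f6 (0.067). In 12 of the 38 (31.6%) at least 2 arrays held exactly the same value, as in 27.2% of all probe sets.

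**Figure D4:**
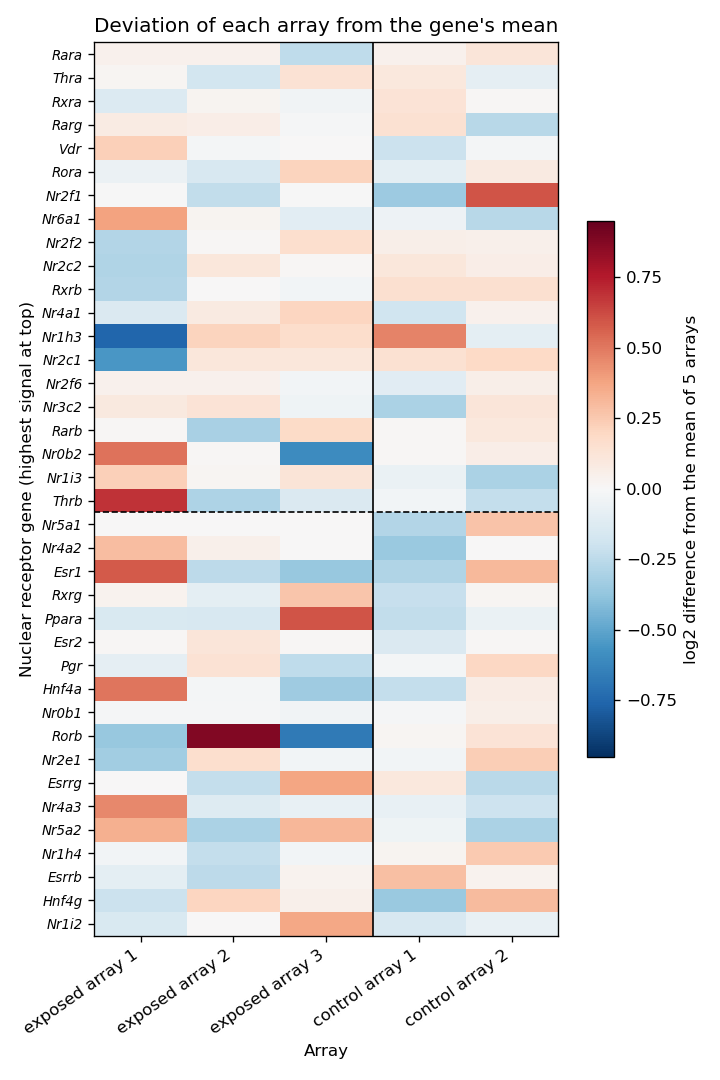
Deviation of each array (columns, exposed left of the line and control right) from the gene's mean over 5 arrays (colour, log2), for 38 receptor genes ordered by signal, with the dashed line at the dim-signal reference. Strong colours include Nr1h3, Nr2c1, Thrb and Esr1 on exposed array 1, Ppara on exposed array 3 and Nr2f1 on control array 2. Rorb has them on exposed arrays 2 (high) and 3 (low), and Nr0b2 on exposed arrays 1 (high) and 3 (low). Thrb on exposed array 1 lies 0.72 above the nearest other array.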

How the data were processed

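Total RNA of 5 samples of differentiated 3T3-L1 cells was hybridised to 1 Clariom S array each, 3 exposed and 2 control. Per the submitters' processing notes the authors' log2 values were made with RMA in Partek; the annotation build, tool versions and settings are not given in the sources used here. In total, the deposited log2 table held 22206 probe sets, and 19572 had 1 gene symbol in the platform annotation, 0 several and 2634 none.

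The 2 groups were set against each other by a two-sided limma model (version 3.58.1, R 4.3.3) with lmFit, eBayes and no term but group. No probe set was filtered out, and Benjamini-Hochberg adjustment ran over the whole table. A probe set was called at an adjusted p under 0.05. Intervals are 95% from that fit, with 3 residual and 3.17 prior degrees of freedom. The script was tested on simulated data.

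The receptors, the 21 gene lists (304 genes, 272 measured) and the tests were chosen with earlier results of these data known, and promoter motifs were chosen after the data were seen. Values on every array are given for the 12 receptors of highest mean, the 6 of lowest unadjusted p, every Rora set and any with a difference over 0.5; others were added after their values were seen. From each list the 2 genes of largest difference are named. Pparg, Nr3c1, Nr1d1 and Nr1d2 are named whatever their result. Lists are described by counts and medians, without a set test. Alternatives covered moderation, trend, a dim filter, scaling, array weights, a replicate block, single arrays left out and the probe set chosen. The number of arrays limits the precision.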

Additional observations from a re-analysis of the deposited data

How the results depend on the processing

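No alternative called a receptor at an adjusted p under 0.05, and the smallest adjusted p of a receptor over all of them was 0.76. Calling by limma's unadjusted p under 0.05 gave 776 probe sets, 1 of them the dimmest Rora set and 0 standing for a receptor gene, and adding a 2-fold minimum left 4 and 0. The receptors' median difference was -0.088 when probe sets dimmer than the median were left out, where 7 of 17 receptors were higher, and 0.042 after quantile normalization again. It ran from -0.055 to 0.11 with single arrays left out. Deviations from the group mean of same-numbered arrays correlated at -0.014 and -0.032. With 2 controls, their deviations are mirror images, and exposed array 3 has no control of its number. These values therefore cannot show whether replicate numbers mark shared cultures. A replicate block, which leaves exposed array 3 without a partner, called 0 receptors with a median of 0.017. Its differences and list medians were the same as those without exposed array 3, so it adds no separate check of them.

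Of 41 receptor probe sets, 24 kept their sign under every alternative. Signs turned for Thra (0.035) and Nr5a1 (-0.044) after quantile normalization again, and for Nr5a1 (-0.010) and the first Rora set (-0.0096) after centring. Array weights turned the first sets of Rora (-0.034) and Rorb (0.13). The replicate block turned Rora (-0.097), Nr0b2 (0.23), Esr1 (0.16), Rorb (0.19) and Esrrg (-0.036). With single arrays left out, ranges spanned 0 for Thra (-0.10 to 0.082), Rarg (-0.10 to 0.31), Rora (-0.097 to 0.096), Nr2f1 (-0.68 to 0.27), Nr2f2 (-0.19 to 0.033), Nr1h3 (-0.60 to 0.00045), Nr2f6 (-0.037 to 0.12), Nr3c2 (-0.050 to 0.36) and Rarb (-0.20 to 0.045). They also did for Nr0b2 (-0.33 to 0.23), Thrb (-0.090 to 0.40), Nr5a1 (-0.27 to 0.28), Esr1 (-0.31 to 0.28), Hnf4a (-0.10 to 0.32), Rorb (-0.59 to 0.19), Esrrg (-0.052 to 0.31) and Hnf4g (-0.29 to 0.37). The cause was not tested.

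Of 21 list medians, 9 kept their sign under every alternative. The level filter moved those of LXR targets (-0.061, 10 genes left) and bile acid and xenobiotic targets (0.20, 2 genes left). It also moved those of macrophage markers (0.050, 3 genes left) and endothelial markers (0.37, 1 gene left). Quantile normalization moved the other nuclear receptors (0.059), immediate-early genes (0.037), adipocyte (-0.031) and macrophage markers (-0.077), centring adipocyte markers (-0.027) and array weights corticosteroid targets (0.080). The replicate block moved corticosteroid targets (0.059) and endothelial markers (-0.013), and turned PPAR targets (0.037) and B and plasma cell markers (-0.081). It also turned thyroid (-0.010) and bile acid and xenobiotic genes (0.0097) and hepatocyte markers (0.020). Array weights turned immediate-early (0.014), bile acid and xenobiotic (0.028), steroid enzyme (-0.013) and thyroid genes (-0.00066). The level filter (-0.036) and centring (-0.0029) turned steroid enzyme genes. With single arrays left out, medians ran from -0.099 to 0.037 for PPAR, -0.13 to -0.0087 for LXR, -0.011 to 0.014 for immediate-early, -0.019 to 0.038 for bile acid and xenobiotic, -0.056 to 0.068 for thyroid, -0.020 to 0.087 for steroid enzyme and -0.074 to 0.083 for corticosteroid genes. They ran from -0.13 to -0.053 for coactivators, -0.14 to -0.023 for corepressors, -0.061 to -0.0021 for retinoid, 0.013 to 0.039 for oestrogen-related, 0.062 to 0.15 for vitamin D and 0.041 to 0.14 for ROR and REV-ERB genes. For markers they ran from -0.027 to 0.0010 (adipocyte), -0.12 to -0.044 (preadipocyte), -0.081 to 0.23 (B and plasma cell), -0.055 to 0.088 (macrophage), -0.013 to 0.14 (endothelium), -0.11 to 0.083 (hepatocyte) and -0.031 to 0.13 (muscle). Without a control array the lone control was assumed to vary like the exposed arrays. Another dim-signal reference put 17 to 23 receptors above it in place of 20. The number of arrays and the compression of dim signals limit what could be seen.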
